A study of Mus musculus with 12 samples.

Results

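The Hox cluster genes were measured by 48 probe sets for 33 of the 39 Hox genes listed in RefSeq, and none of these probe sets passed the test between 5-day embryoid bodies and mouse ES cells. A probe set is a group of short oligonucleotides on an array meant to read 1 transcript, though some are annotated to several genes. Whether a Hox probe set also read related transcripts was not tested. Members were all probe sets annotated to a single gene whose symbol is Hoxa, Hoxb, Hoxc or Hoxd followed by a number. On chip A (MOE430A) they were 37 of 22626 probe sets tested, for 31 genes, and on chip B (MOE430B) 11 of 22511, for 9 genes. A total of 7 genes were on both chips, and Hoxc10 and Hoxd3 were on chip B alone. Single-gene probe sets of the remaining Hox genes were not analysed here. The members comprised 16 probe sets for 9 Hoxa genes (chromosome 6), 11 for 9 Hoxb genes (chromosome 11), 11 for 7 Hoxc genes (chromosome 15) and 10 for 8 Hoxd genes (chromosome 2).

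Hox genes encode homeodomain transcription factors that give cells of the embryo their position along the head-to-tail axis. They lie in 4 clusters, and a gene's number marks its paralog group, that is, its place in the cluster and its counterparts in the other clusters. Low-numbered genes are activated earlier and further towards the head (hindbrain and neck), and high-numbered genes later and towards the tail. Retinoic acid, Wnt and Fgf signals and the Cdx factors switch the clusters on, Polycomb complexes keep them silent in ES cells, and the proteins bind DNA together with TALE cofactors such as Pbx and Meis.

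The samples were 3 of embryoid bodies (EB1 to EB3) and 3 of undifferentiated cells (ES1 to ES3), all of the mouse ES line J1 and each hybridised to both chips. Embryoid bodies are aggregates in which ES cells differentiate. They were grown for 5 days in bacterial Petri dishes in medium with 10% serum and without LIF (the cytokine that keeps ES cells undifferentiated), beta-mercaptoethanol or sodium pyruvate. The ES cells were kept on 0.1% gelatin for 2 days, with the same share of serum and with those 3 additions. The labels put ES cell purity at 95%, judged by eye, the rest being DR4 feeder cells (embryonic fibroblasts on which ES cells are kept). The labels do not say that the replicates were separate cultures, so a p-value here reflects sample-to-sample spread that may be technical.

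Values are MAS5 signals, a linear brightness that the submitters scaled to the same trimmed mean on each array. The median signal of an array lay between 587 and 679 on chip A and between 907 and 996 on chip B. A log2 change is embryoid bodies minus ES cells on log2(signal + pseudocount), the pseudocount being the chip's 20th percentile (136 on chip A, 253 on chip B), which shrinks the changes of dim probe sets. No chip lot and no scan day held both embryoid body and ES cell arrays on either chip, so that lot, scan day and condition cannot be told apart. As a check of the labels, Pou5f1, the ES cell factor Oct4, averaged 7688 ± 236 in embryoid bodies and 14603 ± 1880 in ES cells (SD, n = 3 each; log2 change -0.91, limma adjusted p = 0.00781). Zfp42, another ES cell marker, also fell (-1.75, adjusted p = 0.0298), while the ES cell factor Nanog had a change of -0.16 (adjusted p = 0.57).

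At an adjusted p under 0.05, 0 of the 37 Hox probe sets on chip A and 0 of the 11 on chip B were called by limma, against 6.3% of all probe sets on chip A and 10.7% on chip B. On chip A 34 of the 37 had a mean at or below the chip's median probe set. Of the 11313 probe sets there, 94 were called higher and 121 lower, a smaller share than over the whole chip. At an unadjusted p under 0.05, 2 of 37 passed on chip A, both lower in embryoid bodies, where 22% of all probe sets did. On chip B 2 of 11 passed, both higher, where 28.1% of all probe sets did. These counts depended on single samples. On chip A they were 1 without EB1, 5 without EB2 and 3 without EB3 or ES3. On chip B they were 1 without EB1 or ES3, 0 without EB3 or ES2, 3 without EB2 and 5 without ES1. The share of all probe sets at the unadjusted threshold was not computed in these fits, so the counts have no background beside them. At the adjusted threshold the whole of chip A moved too, from 436 calls without EB1 to 2091 without ES3. The signals of the groups did not overlap for 6 of 37 Hox probe sets on chip A (1 above and 5 below ES cells), against a background of 27.2%, and for 3 of 11 on chip B (all above), against 33.5%. Of the 11313 chip A probe sets at or below the chip median, 780 lay wholly above and 1293 wholly below. That share is lower than 27.2% and near that of the Hox probe sets. In bulk RNA, fewer cells expressing a gene and less RNA per cell cannot be told apart.

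Hox probe sets were dim on chip A. Their mean signals had a median percentile of 21.1 among all probe sets of the chip, and 14 of 37 were below the pseudocount in both groups. Only 3 of 37 had a mean above the chip's median probe set: Hoxc6 (2 probe sets) and Hoxa9. Among probe sets at or below that median 12.9% had an unadjusted p under 0.05, and 2 of 34 Hox probe sets did; above it the share was 31.1%, and 0 of 3 Hox probe sets did. On chip B no Hox probe set was below the pseudocount in both groups and the median percentile was 50.9. There 20.9% of the dimmer probe sets and 1 of 5 Hox probe sets passed, as did 35.2% of the brighter ones and 1 of 6 Hox probe sets.

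**Figure D1:**
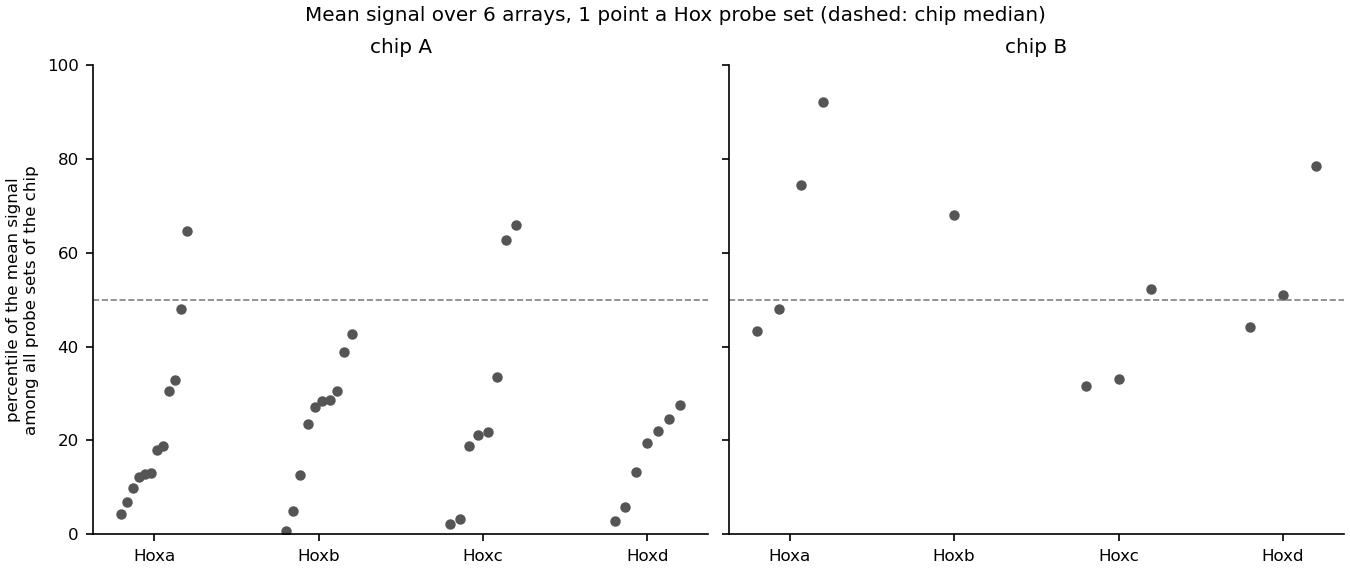
Percentile of each Hox probe set's mean signal over 6 arrays (y axis) among all probe sets of its chip, by cluster (x axis). On chip A the points run from 0.605 for Hoxb13 to 66.0 for Hoxc6, with 3 above the dashed chip median, and on chip B from 31.6 to 92.1.

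The 95% intervals set the size of change that these arrays could show. On chip A the interval of the log2 change extended a median of 0.69 to either side, and 18 of 37 Hox probe sets had an interval wholly within 1 of 0. On chip B the extent was 0.87 and 1 of 11 lay within that range. A rise of over 1 was outside the interval for 32 of 37 probe sets on chip A and for 4 of 11 on chip B. These bounds are on the scale with the pseudocount, and for a probe set below it they say little about the RNA itself.

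**Figure D2:**
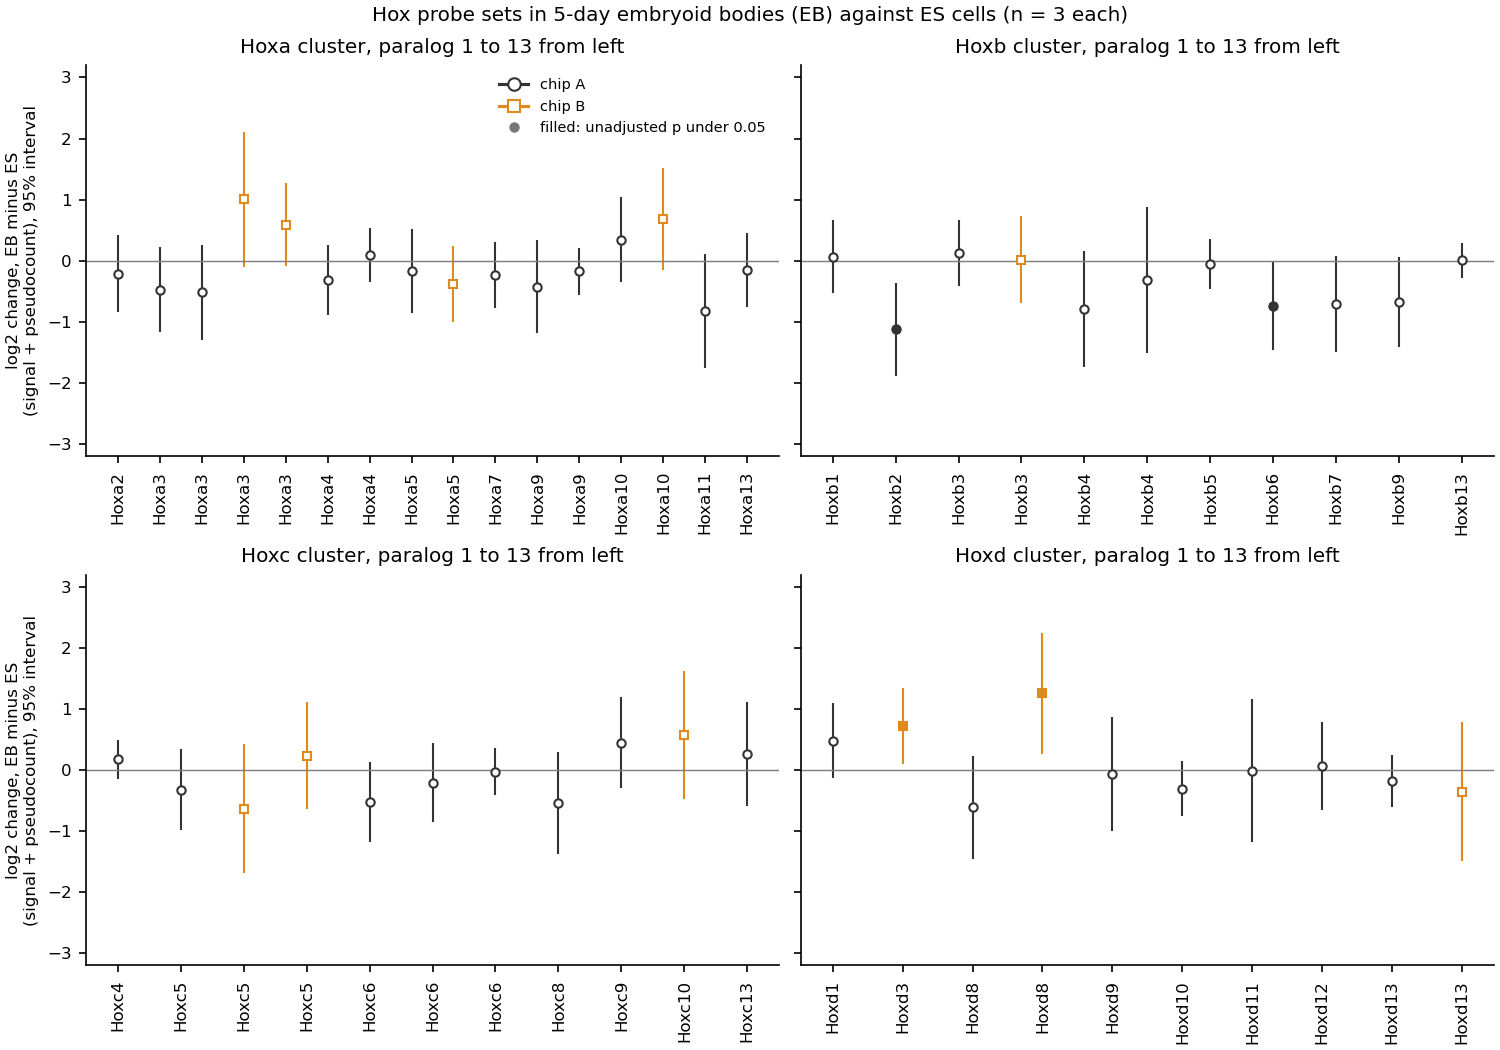
Log2 change between embryoid bodies and ES cells (y axis, signal plus pseudocount) with its 95% interval for every Hox probe set, ordered by paralog number within each cluster (circles chip A, squares chip B; filled where the unadjusted p was under 0.05). The filled points are Hoxb2 and Hoxb6 below 0 on chip A and Hoxd3 and Hoxd8 above 0 on chip B, and no point passed the adjusted threshold.

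The Hoxb cluster held both probe sets with a lower signal at the unadjusted threshold. Hoxb2, which patterns the hindbrain, had signals of 138, 147 and 374 in embryoid bodies, against 682, 690 and 471 in ES cells. All embryoid body arrays were below all ES cell arrays, and EB3 was the highest of its group while ES3 was the lowest of its own. The log2 change was -1.12 (95% interval -1.88 to -0.37, unadjusted p = 0.00807, adjusted p = 0.0823), a 2.18-fold lower value on that scale. In the pairs of arrays run on the same fluidics position it was -1.53 and -0.70.

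Hoxb6, a gene of the trunk, had 112, 208 and 43.1 in embryoid bodies, against 209, 413 and 237 in ES cells. The groups did not overlap, but EB2 and ES1 differed by less than 1 unit of signal and formed the same fluidics pair. The log2 change was -0.74 (interval -1.46 to -0.02, unadjusted p = 0.0462, adjusted p = 0.217), with -0.00 and -1.61 in the pairs that shared a fluidics position. Hoxb7, also a trunk gene and the brightest Hoxb probe set of chip A, had 154, 489 and 394 in embryoid bodies, against 754, 600 and 505 in ES cells. Its groups did not overlap either, and its change of -0.71 did not pass (unadjusted p = 0.0708, adjusted p = 0.275).

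Hoxb9, of the posterior part of the cluster, had 168, 132 and 196 in embryoid bodies, against 481, 441 and 177 in ES cells, where ES3 lay within the embryoid body values (-0.68, adjusted p = 0.267). The probe sets of Hoxb4 gave -0.79 and -0.31 and that of Hoxb5 -0.06. Hoxb1, the hindbrain gene that retinoic acid activates directly, had 216, 237 and 324 in embryoid bodies, against 231, 247 and 237 in ES cells, a change of 0.07. Hoxb3 changed by 0.12 on chip A and 0.02 on chip B (-0.02 with quantile normalisation), and Hoxb13 by 0.01 at signals of 24.2 or less in every array. Over the 10 Hoxb probe sets of chip A, 3 changes were positive and 7 negative, with a median of -0.50 beside -0.05 for all probe sets of the chip. That median was -0.83 with pseudocount 1 and -0.22 with the pseudocount at the chip median, and -0.28 without ES2 or -0.30 without EB3.

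Markers of feeder fibroblasts were lower in embryoid bodies on the same arrays. Of 25 listed markers 24 were measured, 11 fell (6.3% of all probe sets on chip A were called in either direction), none rose and 13 did not pass. Their summed signal on chip A was 21735 to 38685 in embryoid bodies and 63203 to 91992.5 in ES cells, and none was below the pseudocount in both groups. Col1a1, the collagen of connective tissue and the marker with the largest change, averaged 48.6 ± 20.2 in embryoid bodies, below the pseudocount, and 4923 ± 1554 in ES cells (SD, n = 3 each; adjusted p = 0.000141). Twist1 and Twist2 had positive changes that did not pass (1.01 and 0.19, limma adjusted p = 0.144 and 0.753). For Twist1 all embryoid body arrays lay above all ES cell arrays. The other measured markers had negative changes. On chip B 7 markers were measured and none was called, where 10.7% of all probe sets were. The sums there were 2285 to 4823 in embryoid bodies and 2621 to 3365 in ES cells. The part of these cells in the lower Hoxb signals was not tested.

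The Hoxd cluster held both probe sets with a higher signal at the unadjusted threshold. Hoxd3, a gene of the neck region, had 2831, 2840 and 2822 in embryoid bodies, against 2282, 1120 and 1634 in ES cells, on chip B. The embryoid body arrays were nearly equal and all above the ES cell arrays. The log2 change was 0.72 (interval 0.10 to 1.34, unadjusted p = 0.0267, adjusted p = 0.124), with 0.28, 1.17 and 0.70 within the fluidics positions.

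Hoxd8, a trunk gene, had 1002, 1143 and 1766 in embryoid bodies, against 752, 132 and 414 in ES cells, on chip B (an ID ending in _s_at). The groups did not overlap, and ES2 was below the pseudocount. The log2 change was 1.26 (interval 0.27 to 2.25, unadjusted p = 0.0176, adjusted p = 0.0982), with 0.32, 1.86 and 1.60 within the fluidics positions. The chip A probe set of Hoxd8 had 28.3, 57.9 and 326 in embryoid bodies, against 235, 227 and 254 in ES cells. There EB1 and EB2 were below and EB3 above all ES cell arrays, and the change was -0.61 (adjusted p = 0.387). The probe sets of this gene thus differed in sign, by 1.87 in log2 change.

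The stretch of 250 bases before the annotated start is shown for Hoxd3 and Hoxd8, the genes whose chip B probe sets had an unadjusted p under 0.05, and for Evx1, the homeobox gene beside the Hoxa cluster that was called higher (values given with the inducers further on). The sequences are from RefSeq (GRCm38.p6), 5′ to 3′ on the gene's strand. Capitals mark matches to TTTATG, a Cdx-type motif, and AGGTCA, the core motif of nuclear receptors such as the retinoic acid receptors, on either strand. Hoxd3 lies at chr2:74711743-74711992 (plus strand), Hoxd8 at chr2:74704365-74704614 (plus strand) and Evx1 at chr6:52313248-52313497 (plus strand).
Hoxd3: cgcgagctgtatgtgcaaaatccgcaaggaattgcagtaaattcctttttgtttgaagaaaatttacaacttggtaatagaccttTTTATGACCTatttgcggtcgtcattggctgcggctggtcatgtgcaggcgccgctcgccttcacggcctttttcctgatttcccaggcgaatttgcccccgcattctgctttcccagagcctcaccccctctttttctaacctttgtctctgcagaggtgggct
Hoxd8: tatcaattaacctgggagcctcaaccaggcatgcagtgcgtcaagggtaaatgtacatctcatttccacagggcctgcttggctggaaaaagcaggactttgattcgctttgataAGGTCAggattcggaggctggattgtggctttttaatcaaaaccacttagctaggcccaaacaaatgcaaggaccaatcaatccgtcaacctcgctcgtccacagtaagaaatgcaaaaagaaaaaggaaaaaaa
Evx1: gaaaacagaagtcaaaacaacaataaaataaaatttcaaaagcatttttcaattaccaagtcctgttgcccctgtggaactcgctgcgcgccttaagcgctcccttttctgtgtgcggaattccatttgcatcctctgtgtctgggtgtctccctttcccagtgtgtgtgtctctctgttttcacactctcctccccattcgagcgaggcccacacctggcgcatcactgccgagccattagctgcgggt
The run in Hoxd3 holds TTTATG, starting 165 bases before the start site, and AGGTCA on the other strand, starting at 161 bases, which overlap. Hoxd8 holds AGGTCA at 135 bases. In windows of this length TTTATG occurred in 10.8% of 32851 RefSeq promoters and AGGTCA in 14.0%, and in 20.8% and 25.0% of the 24 Hox promoter entries. The motif TGATTNAT, bound by Hox and Pbx pairs, occurred in 2.82% of promoters and 8.33% of Hox entries, and in none of the 3 shown. The window of Hoxa3, whose probe sets differed in sign, held none of these motifs and is not shown. Hoxb2 and Hoxb6, lower at the unadjusted threshold, had no entry among these promoters, so their windows could not be read. A match describes the letters of the window only.

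The other Hoxd genes gave no call at either threshold. Hoxd1, active in early hindbrain and mesoderm, had 168, 189 and 274 in embryoid bodies, against 108, 182 and 54.8 in ES cells, and its change of 0.48 did not pass (adjusted p = 0.345). Hoxd11, which shapes the limb and lower spine, had 423, 60.6 and 235 in embryoid bodies, against 40.3, 562 and 203 in ES cells. The spread within each group exceeded the difference, and the change of -0.01 had an interval of -1.19 to 1.16. Hoxd9, Hoxd10, Hoxd12 and Hoxd13 ranged from -0.31 to 0.07 on chip A, and Hoxd13 had -0.35 on chip B. Over the 7 Hoxd probe sets of chip A the median was -0.07 and had no stable sign. It was 0.037 with quantile normalisation and 0.09 without ES2, but -0.29 with fluidics position as a block, -0.26 with pseudocount 1, -0.22 without EB2, -0.17 without EB3 and -0.15 without EB1.

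**Figure D3:**
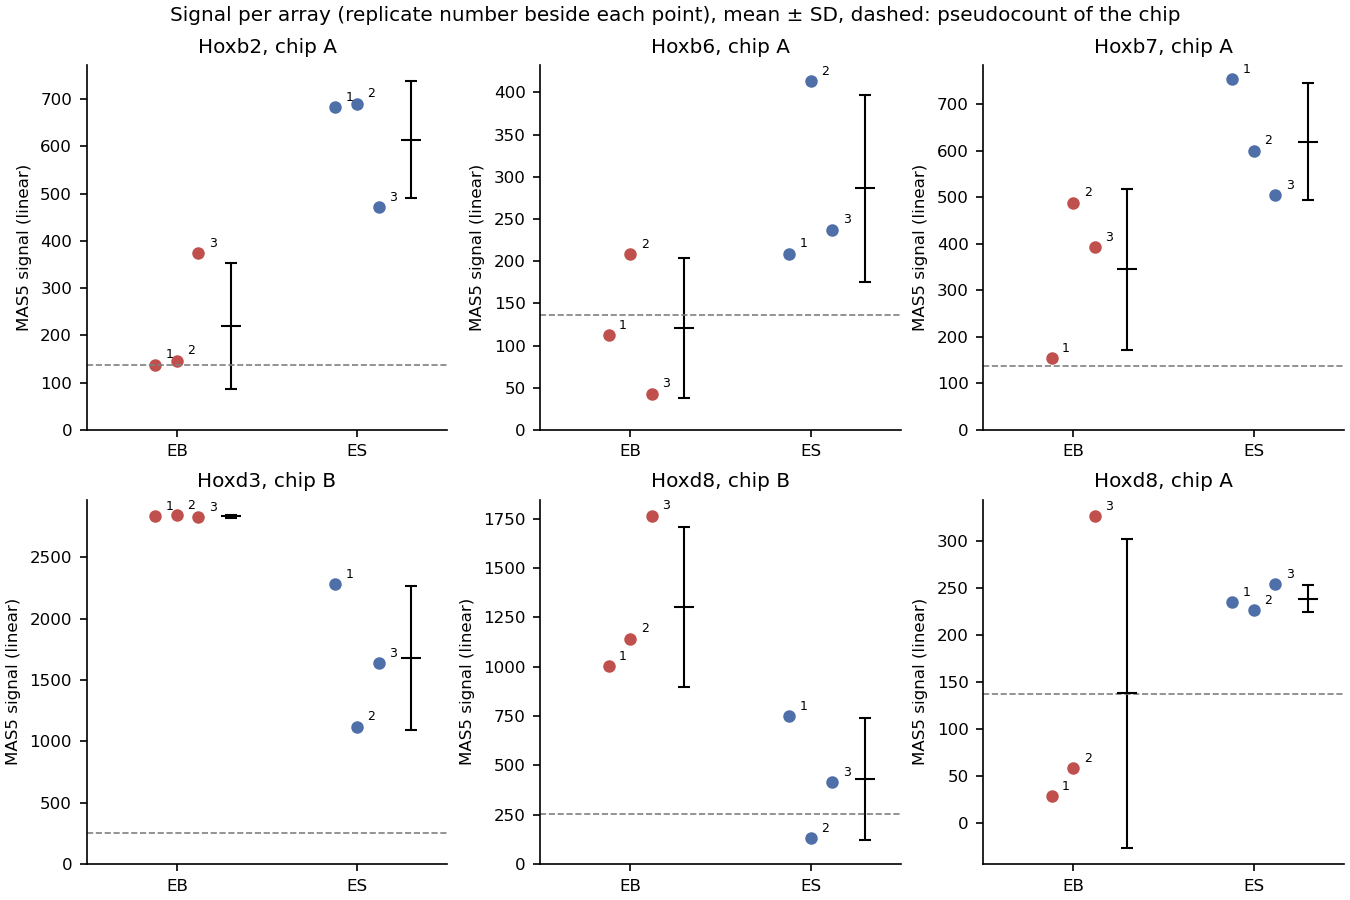
MAS5 signal (linear, y axis) of 6 Hox probe sets in each embryoid body (EB) and ES cell array, with mean ± SD and the chip's pseudocount as a dashed line. Embryoid body arrays lie below the ES cell arrays for Hoxb2, Hoxb6 and Hoxb7 on chip A and above them for Hoxd3 and Hoxd8 on chip B, while the chip A probe set of Hoxd8 overlaps between the groups.

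In the Hoxa cluster Hoxa3, which patterns the neck and pharyngeal arches, gave opposite changes on the chips. The dimmer of its chip B probe sets had 1588, 779 and 1596 in embryoid bodies, against 1059, 138 and 595 in ES cells, a change of 1.0 (interval -0.10 to 2.11, adjusted p = 0.217). The brighter chip B probe set had 2534, 1828 and 2943 in embryoid bodies, against 2082, 1502 and 1073 in ES cells (0.59, adjusted p = 0.234). In both, 1 embryoid body array fell within the range of the ES cell arrays. On chip A the brighter probe set had 213, 97.6 and 357 in embryoid bodies, against 454, 251 and 379 in ES cells (-0.51, adjusted p = 0.433). The dimmer one had 174, 159 and 14.1 in embryoid bodies, against 222, 186 and 183 in ES cells (-0.47, adjusted p = 0.416). The 4 changes of the gene spanned 1.52 and none passed, so that a direction for Hoxa3 depended on the probe set.

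Hoxa5, a trunk gene needed in the lung, had 79.4, 69.2 and 101 in embryoid bodies, against 54.5, 53.4 and 280 in ES cells, on chip A. ES3 stood above all the other arrays, and the change of -0.17 did not pass (adjusted p = 0.794). Its chip B probe set, the brightest Hox probe set of that chip, had 3515, 2617 and 4789 in embryoid bodies, against 3303, 5532 and 5620 in ES cells (-0.38, adjusted p = 0.398). The ID of that probe set ends in _x_at, and whether it also read other transcripts was not tested. Hoxa9, a posterior gene also active in blood progenitors, had 467, 1439 and 1004 in embryoid bodies, against 1096, 1587 and 1097 in ES cells (-0.42, adjusted p = 0.517), while its other probe set was at 96.0 or less in every array.

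Hoxa10, active in the uterus and lumbar region, had 1582, 793 and 967 in embryoid bodies, against 625, 490 and 622 in ES cells, on chip B. The groups did not overlap, and the change of 0.68 did not pass (unadjusted p = 0.101, adjusted p = 0.268). Its chip A probe set changed by 0.35. Hoxa11, needed in the limb and kidney, had the lowest Hoxa change, -0.82 (interval -1.76 to 0.11, adjusted p = 0.29), with 350, 773 and 143 in embryoid bodies, against 945, 720 and 604 in ES cells. Hoxa13 had 308, 314 and 274 in embryoid bodies, against 320, 326 and 404 in ES cells. Its groups did not overlap although the change was -0.16. Hoxa2, Hoxa4 and Hoxa7 ranged from -0.31 to 0.09, and over the 12 Hoxa probe sets of chip A the median was -0.22. It was -0.53 with pseudocount 1 and -0.079 with the pseudocount at the chip median, -0.14 with quantile normalisation or the fluidics block, and -0.37 without ES1.

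The Hoxc cluster held the brightest Hox probe set of chip A. Hoxc6, a gene of the thoracic trunk, had 875, 1497 and 873 in embryoid bodies, against 1105, 1788 and 936 in ES cells, in its brightest probe set (an ID ending in _x_at). The groups overlapped and the change was -0.21 (adjusted p = 0.73). The other Hoxc6 probe sets gave -0.53 and -0.03. Hoxc4, of the neck region, had 41.6, 54.7 and 33.5 in embryoid bodies, against 22.4, 18.4 and 27.0 in ES cells. All of these lay below the pseudocount, and the groups did not overlap (0.17, adjusted p = 0.522).

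Hoxc9, which specifies thoracic motor neurons, had 499, 239 and 481 in embryoid bodies, against 265, 345 and 166 in ES cells (0.45, adjusted p = 0.482). Hoxc10, a gene of the lumbar region, had 978, 1580 and 1224 in embryoid bodies, against 1819, 376 and 534 in ES cells, on chip B. ES1 was above every embryoid body array, and the change of 0.57 did not pass (adjusted p = 0.464). Hoxc8 changed by -0.54 and Hoxc13 by 0.26. The 3 probe sets of Hoxc5 gave -0.32 on chip A and -0.63 and 0.23 on chip B. Over the 8 Hoxc probe sets of chip A the median was -0.12, and over the alternatives it ran from -0.37 (the probe sets above the chip median) to 0.064 (without ES2).

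Grouped by paralog number, the 11 chip A probe sets for 9 trunk genes of groups 5 to 8 had negative changes, with a median of -0.32 and a range of -0.74 to -0.03. Over all chip A probe sets at or below the chip median, 60.2% of changes were negative. The shared sign did not hold throughout: Hoxa5 had 0.21 with fluidics position as a block and 0.20 without ES3, and the brightest Hoxc6 probe set 0.039 without ES2. The median ran from -0.57 with pseudocount 1 to -0.15 with the pseudocount at the chip median, and was -0.53 with 1 probe set a gene. The probe sets of groups 1 to 4 had 5 positive and 7 negative changes with a median of -0.26 (0.067 with 1 probe set a gene, 0.02 without ES2), and those of groups 9 to 13 had 5 positive and 9 negative with a median of -0.11 (-0.42 for the probe set above the chip median, -0.24 with pseudocount 1, -0.016 with quantile normalisation, -0.062 without ES3, -0.19 without EB2). The median deviation of the groups 5 to 8 probe sets from their 6-array means was -0.25, -0.09 and -0.14 in the embryoid body arrays and 0.11, 0.27 and 0.13 in the ES cell arrays. For all chip A probe sets at or below the chip median it was -0.09, -0.01 and -0.05, against 0.02, 0.10 and -0.03. Of the 11 changes of groups 5 to 8, 1 passed the unadjusted threshold and none the adjusted one. On chip B the 4 probe sets of groups 5 to 8 had a median of -0.07 (0.079 without EB3, 0.11 without ES2), with 2 positive and 2 negative changes. The 4 of groups 1 to 4 were all positive there (median 0.66) and the 3 of groups 9 to 13 had a median of 0.57.

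**Figure D4:**
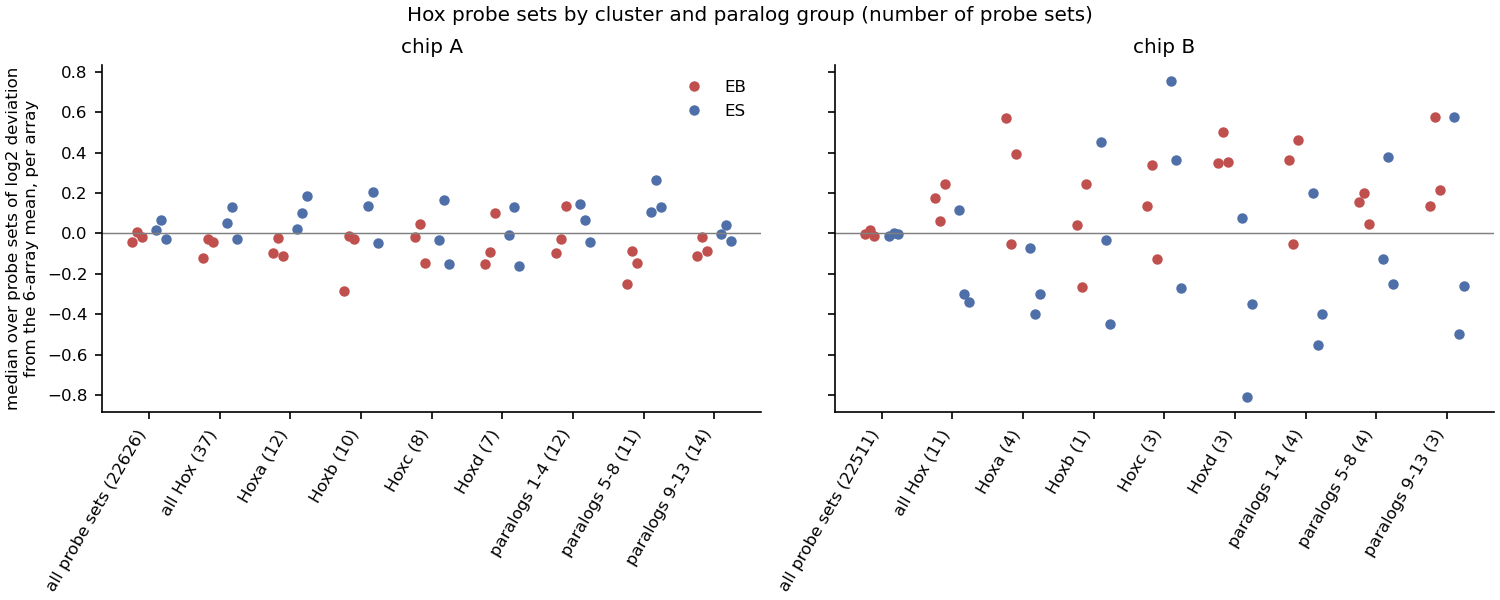
Median over probe sets of the log2 deviation from each probe set's 6-array mean (y axis), 1 point an array, for all probe sets, all Hox probe sets, clusters and paralog groups (number of probe sets in brackets). On chip A the embryoid body points of groups 5 to 8 lie from -0.25 to -0.09 and the ES cell points from 0.11 to 0.27, and those of Hoxa are apart too (at most -0.02 against at least 0.021), while Hoxb, Hoxc, Hoxd and the other paralog groups overlap. On chip B each cluster or paralog group rests on 1 to 4 probe sets.

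Between the chips the direction of the Hox probe sets differed. On chip A 27 of 37 changes were negative and the median was -0.21. Over all probe sets of that chip 55.2% were negative with a median of -0.05, and over those at or below the chip median, where 34 of the 37 lay, 60.2% with a median of -0.09. On chip B 8 of 11 were positive and the median was 0.57, beside 49.9% positive and a median of -0.00 over all probe sets. With quantile normalisation 24 of 37 were negative and 7 of 11 positive. With 1 probe set a gene, 12 of 33 genes had a positive and 21 a negative change (median -0.17). Of the 11 genes with several probe sets, 4 had changes of opposite sign, and for Hoxa3 and Hoxd8 these differed by over 1. The chips use different probe sets, and levels were not compared between them.

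The partners and inducers of the clusters were read from the same fits, in which 6.3% of all probe sets on chip A and 10.7% on chip B were called. Of 10 TALE cofactors 9 were measured, 2 rose, none fell and 7 did not pass. Meis2 averaged 694 ± 291 in embryoid bodies and 132 ± 88.0 in ES cells (SD, n = 3 each; log2 change 1.62, adjusted p = 0.0374). Pbx2 averaged 3388 ± 408 in embryoid bodies and 1447 ± 394 in ES cells (1.18, adjusted p = 0.0138). Tgif1, a related repressor and the brightest cofactor not called, changed by 0.19.

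Of 16 neighbours and inducers of the clusters 14 were measured, 1 rose and 13 did not pass, a share near that of all probe sets. Evx1 had 895, 845 and 1637 in embryoid bodies, against 360, 175 and 102 in ES cells. The groups did not overlap, and the log2 change was 1.87 (interval 1.04 to 2.69, adjusted p = 0.0188). The gene marks the primitive streak as well as adjoining Hoxa13, whose own change was -0.16. Cdx1, Cdx2 and Cdx4, the caudal factors that activate trunk Hox genes, had changes of -0.15, 0.17 and -0.14. Cdx1 was at 55.1 or less in every array, below the pseudocount, so its change says little about the RNA. Cdx2 had 63.0, 74.2 and 488 in embryoid bodies, against 35.6, 252 and 138 in ES cells (interval -0.86 to 1.21). The interval of Cdx4 was -0.68 to 0.40. Fgf8, a signal of the streak and tail bud, had 810, 760 and 2627 in embryoid bodies, against 57.9, 490 and 1319 in ES cells, and its change of 1.24 did not pass (adjusted p = 0.33).

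Of 15 genes of retinoic acid transport, synthesis, breakdown and reception 14 were measured, 2 rose and 12 did not pass. Crabp2, which carries retinoic acid to its receptors, averaged 6939 ± 760 in embryoid bodies and 400 ± 159 in ES cells (SD, n = 3 each; log2 change 3.76, adjusted p = 0.000153). Cyp26a1, which degrades retinoic acid, had 3128, 1174 and 3814 in embryoid bodies, against 162, 258 and 1143 in ES cells (2.27, adjusted p = 0.0432). The receptor Rarg had a change of -0.93 that did not pass (adjusted p = 0.0674).

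Of 12 factors listed for the anterior head, a region in front of the Hox domains, 11 were measured, 5 rose, none fell and 6 did not pass. Whether a listed gene was confined to that region was not tested, and Pax6 was also counted among the neural ectoderm markers. Otx1 averaged 2871 ± 1197 in embryoid bodies and 56.3 ± 22.7 in ES cells (SD, n = 3 each; log2 change 3.27, adjusted p = 0.00205, chip B). Emx2, a forebrain factor, averaged 4347 ± 401 in embryoid bodies and 448 ± 298 in ES cells (2.82, adjusted p = 0.00286, chip B). Lhx2 changed by 2.65, Otx2 by 1.23 and Pax6 by 1.10, all called, and Irx3 by 0.37, which did not pass.

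Of 28 Polycomb and Trithorax genes, which keep Hox chromatin silent or active, 27 were measured, 4 rose, 6 fell and 17 did not pass. Cbx7, the Polycomb reader of ES cells, averaged 67.5 ± 36.3 in embryoid bodies and 917 ± 200 in ES cells (SD, n = 3 each; log2 change -2.37, adjusted p = 0.00329). Jarid2, a subunit of the complex that methylates histone H3, fell by 1.65 on the log2 scale, and Kmt2b, a Trithorax methyltransferase, by 1.54 on chip B. Suz12, Mtf2 and Phc1 also fell. Phc2 rose by 1.34, Cbx2 by 0.77, and the catalytic subunits Ezh2 and Rnf2 by 0.79 each. Ash2l, the brightest member not called, changed by -0.69 (adjusted p = 0.0833).

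**Figure D5:**
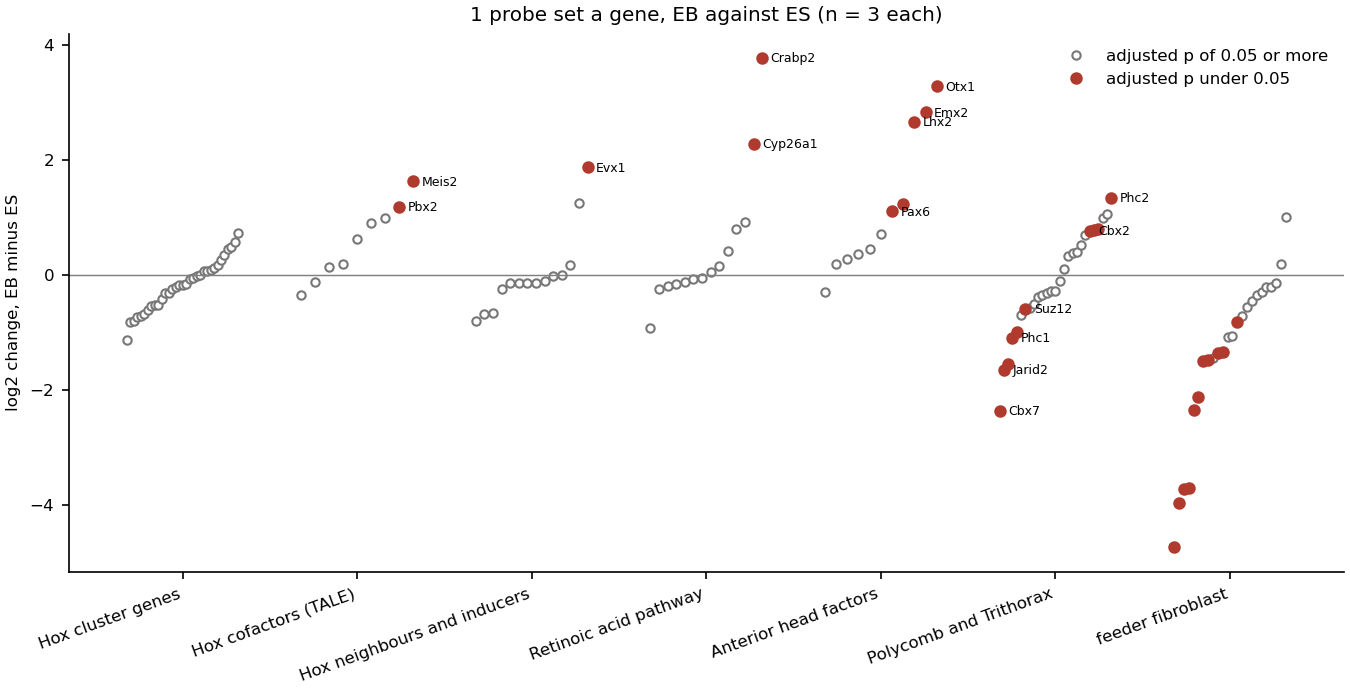
Log2 change between embryoid bodies and ES cells (y axis), 1 point a gene, for the Hox cluster genes, 5 lists of partners and regulators and the feeder fibroblast markers (filled where the adjusted p was under 0.05; names printed where they fit). The Hox genes lie between -1.12 and 0.72 with none filled, while 5 anterior head factors, Crabp2, Cyp26a1, Evx1, Meis2 and Pbx2 are filled above 0.

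Markers of other cell types were checked on the same arrays, where 6.3% of all probe sets on chip A and 10.7% on chip B were called. Of 13 measured markers of primitive streak and early mesoderm 5 rose and none fell, and of 12 of neural ectoderm 6 rose and none fell. Of 12 endoderm markers 1, Foxa2, rose. Of 16 pluripotency markers 13 fell. Their part in the Hox values was not tested.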

How the data were processed

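RNA of 3 embryoid body and 3 ES cell samples was measured on Affymetrix MOE430A and MOE430B chips, 12 arrays in all. The deposited values are MAS5 signal intensities, scaled by the authors per the submitters' processing notes. On each array the 2% trimmed mean was between 1500.53 and 1500.60 on chip A and between 1500.13 and 1500.18 on chip B. The MAS5 version is not given in the sources used here, and detection calls were not used. Gene names come from GEO's platform annotation. The members and gene lists were chosen with earlier results of these data known.

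Control probe sets, 64 on each chip, did not enter the fits. Log2(intensity + pseudocount) was fitted per chip with limma 3.58.1 in R 4.3.3 (lmFit, eBayes with an intensity trend), and p-values were Benjamini-Hochberg adjusted over all probe sets of the chip. The method was tested on simulated data. The number of arrays limits the precision; an exact permutation test of 3 against 3 cannot go below p = 0.1.

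Values per array are given for Hox probe sets with a p under 0.05, for the brightest probe set of each cluster and paralog group, and for genes whose probe sets differ in sign by over 1; Hoxa10, Hoxa11, Hoxa13, Hoxb1 and Hoxc10 and the chip B probe set of Hoxa5 were added after their values were seen. From each list, called members with the largest changes and the brightest uncalled one are named, and the Cdx genes, Suz12, Mtf2, Phc1, Cbx2, Ezh2, Rnf2 and Pax6 were added. A gene in a list, or in counts with 1 probe set a gene, stands for 1 probe set. Chip A came before chip B, then an ID not ending in _x_at, then the brightest. Same-numbered samples did not deviate together (correlations of -0.07 to 0.04), so the main fit did not use the numbers as pairs. On chip B same-numbered samples shared a fluidics position, so the replicate block and the fluidics block were the same fit there. Alternatives were the normalization, pseudocount, filter, trend, threshold, blocks and leaving out each replicate.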

Additional observations from a re-analysis of the deposited data

How the results depend on the processing

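No Hox probe set was called on either chip under any alternative at the same threshold. At an adjusted p under 0.1, 1 was called on chip A (Hoxb2) and 1 on chip B (Hoxd8). The lowest adjusted p of any Hox probe set over all alternatives was 0.0506 on chip A (Hoxb2, scan day as a random block) and 0.0822 on chip B (Hoxd8, no intensity trend). The scan day block cannot adjust for scan day, since no scan day held both groups. Its estimate of the correlation within a scan day was -0.113. The next lowest adjusted p on chip A was 0.0619 (Hoxb2, without EB replicate 3). Over its alternatives Hoxb2 changed by -1.62 to -0.56, Hoxb6 by -1.44 to -0.29, Hoxd3 by 0.50 to 0.94 and the chip B probe set of Hoxd8 by 0.71 to 1.87. The number of Hox probe sets with an unadjusted p under 0.05 on chip A was 2, but 5 without EB replicate 2, 1 each without EB replicate 1 and with quantile normalization, median scaling or pseudocount 1, and 0 above the chip median. It was 3 with no intensity trend, with fluidics position or scan day as a block, without EB replicate 3 and without ES replicate 3, and without ES replicate 2 it was 1 higher and 1 lower. On chip B it was 2, but 0 without EB replicate 3, 0 without ES replicate 2, 5 without ES replicate 1, and 1 each without EB replicate 1, without ES replicate 3 and above the chip median. There it was 3 with no intensity trend, with the replicate or fluidics block and without EB replicate 2. The share of all probe sets at the unadjusted threshold was not computed for these alternatives. With the replicate block 1136 probe sets were called on chip A and 2108 on chip B, and 0 Hox probe sets on either. All probe sets called on chip A were 1425, against 343 at an adjusted p under 0.01, 2569 under 0.1, 844 with no intensity trend, 2243 with scan day as a random block and 436 to 2091 when 1 replicate was left out. On chip B they were 2405, against 564 under 0.01, 4115 under 0.1 and 934 to 1807 with 1 replicate left out. The median Hox change on chip A was -0.21, against -0.52 with pseudocount 1, -0.078 with the pseudocount at the chip median, -0.42 for the 3 probe sets above the chip median, and -0.28 to -0.042 with 1 replicate left out (-0.042 without ES replicate 2). On chip B it was 0.57, and 0.29 for the 6 probe sets above the chip median. A total of 3 named probe sets with small changes changed sign. Hoxd11 gave 0.086 with quantile normalization, 0.049 with median scaling, 0.13 with pseudocount 1 and -0.50 to 0.49 with 1 replicate left out. Hoxa5 on chip A gave 0.21 with fluidics position as a block and -0.36 to 0.20 with 1 replicate left out. The brightest Hoxc6 probe set gave -0.44 to 0.039 with 1 replicate left out. The cause of these shifts was not tested. Of the chip A Hox probe sets 14 of 37 were below the pseudocount in both groups, and every value rests on 3 arrays a group.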

Other observations

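Probe sets of the Hox loci that are not single Hox genes were read in the same fits. Hoxb5os, an antisense transcript of the Hoxb cluster on chip B, had signals of 228, 2359 and 265 in embryoid bodies, against 4253, 2850 and 1008 in ES cells, with EB2 within the ES cell range (log2 change -1.59, limma unadjusted p = 0.0384, adjusted p = 0.152). Hoxb5 itself changed by -0.06 on chip A at signals of 78.1 or less. The probe sets of Hoxa11os changed by 0.06 on chip A and -0.43 on chip B and those of Hoxd3os1 by -0.35 and -0.05 on chip B. Of the 3 probe sets annotated to several Hox genes, that of Hoxb8 and Hoxb7 changed by -0.02 and those of Hoxd4 and Hoxd3 by 0.20 and 0.29. None of these passed an adjusted p of 0.05.

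Meis1, a TALE cofactor on chip A, averaged 150 ± 107 in embryoid bodies and 10.1 ± 0.448 in ES cells (SD, n = 3 each). Its log2 change of 0.90 did not pass (limma adjusted p = 0.0665), and the ES cell arrays lay far below the pseudocount of 136. Of the embryoid body arrays only EB1 (270) was above it, with 113 in EB2 and 66.1 in EB3.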
